A study of Homo sapiens with 7 samples.

Results

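Part of the RNA made in a human cell comes from stretches of the genome to which a gene table gives no name. Assemblers of RNA-Seq reads list such stretches as unnamed loci, and many of those far from known genes are long noncoding RNAs, RNAs of enhancers, pieces of unrecognised genes or copies of repeated small RNAs. In HepG2 cells, 366 of the 30032 loci in the expression table were expressed, unnamed and distant from named genes. They were selected on 4 conditions: no gene name, a place on chromosomes 1 to 22, a value of at least 0.5 FPKM (fragments per kilobase of transcript, scaled to the number of mapped fragments) in each of 2 columns, and a span over 2 kb away from the span of every named locus. The FPKM and the gap to named loci chose the loci and are therefore given as descriptions, whereas the histone marks were not used in the choice.

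HepG2 is an established human liver cancer cell line, and no treatment is named in the labels. There were 7 samples, with 1 for each assay: ChIP-Seq of 5 histone marks, native MNase-Seq for nucleosome positions, and RNA-Seq of total RNA from which ribosomal RNA had been removed. The study asked which marks sit on single nucleosomes and how they relate to expression. With no replicates and no second condition, no P value was computed. Both FPKM columns belong to the same RNA sample and are called run 1 and run 2 here, and it is not known whether they are separate cultures or repeated sequencing.

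H3K4me3 and H3K9ac are marks of active promoters, and H3K27ac lies at active promoters and enhancers. H3K27me3 is laid down by Polycomb complexes at silenced developmental genes, and H3K9me3 is a mark of heterochromatin, repeats and zinc finger gene clusters. A nucleosome carrying H3K4me3, H3K9ac and H3K27ac together is called trivalent ("T") here, and any of these 3 is called an activation mark. Peaks in the lists are 146 bp long, lie at nucleosome positions and come without heights or counts of reads, and the lists do not give the depth behind a peak. The number of peaks ran from 26271 for H3K27me3 and 34534 for H3K9me3 to 76681 for H3K9ac, 85714 for H3K4me3 and 95886 for H3K27ac. A mark was counted at a locus when at least 1 bp of a peak lay in the span or within 2 kb of it.

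The label of the cells was checked against marker genes. Of the 8 hepatocyte-derived markers, each had a locus at 56.6 FPKM (FGB) or more, up to 10011 FPKM for ALB, although a further APOA1 locus had 0.923 FPKM. The blood markers PTPRC and CD3E were listed at 0. The other blood, fibroblast and neuronal markers were at 0.287 FPKM or below except COL1A2 (1.16 FPKM), PDGFRB (2.0 FPKM) and 1 of 3 SNAP25 loci (4.59 FPKM).

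The 366 loci were a small part of the unnamed loci. Of 6729 unnamed loci, 6551 were on chromosomes 1 to 22 and 4496 of these were over 2 kb from named loci. Most of the distant loci, 3861, were under 0.5 FPKM in both runs and 269 reached it in 1 run only. Another 353 unnamed autosomal loci reached 0.5 FPKM in both runs but were nearer to a named locus, and 7 loci met the other conditions on chromosomes outside 1 to 22. At the FPKM limit, XLOC_021801 was just inside with 0.5002 and 0.784 FPKM, and XLOC_011777 was just outside with 0.559 and 0.4997 FPKM. At the distance limit, XLOC_012122 was inside at 2045 bp from TEX19 and XLOC_005486 was outside at 1976 bp from TOLLIP.

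Length spread over 4 orders of magnitude, from 53 to 666058 bp, with a median of 4748 bp and quartiles of 1316 and 20607 bp. The 3861 distant loci under the limit were shorter, with a median of 1443 bp. Lengths over 100 kb were found in 17 members. Expression was mostly low: the median of the mean FPKM of both runs was 1.20, the quartiles were 0.761 and 2.23, and 156 loci were below 1 FPKM. The gap to the nearest named locus had a median of 22630 bp and reached 1978185 bp. That neighbour was itself at 0.5 FPKM or more in both runs for 256 members and had a median of 6.59 FPKM, and 137 members were higher than their neighbour.

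**Figure D1:**
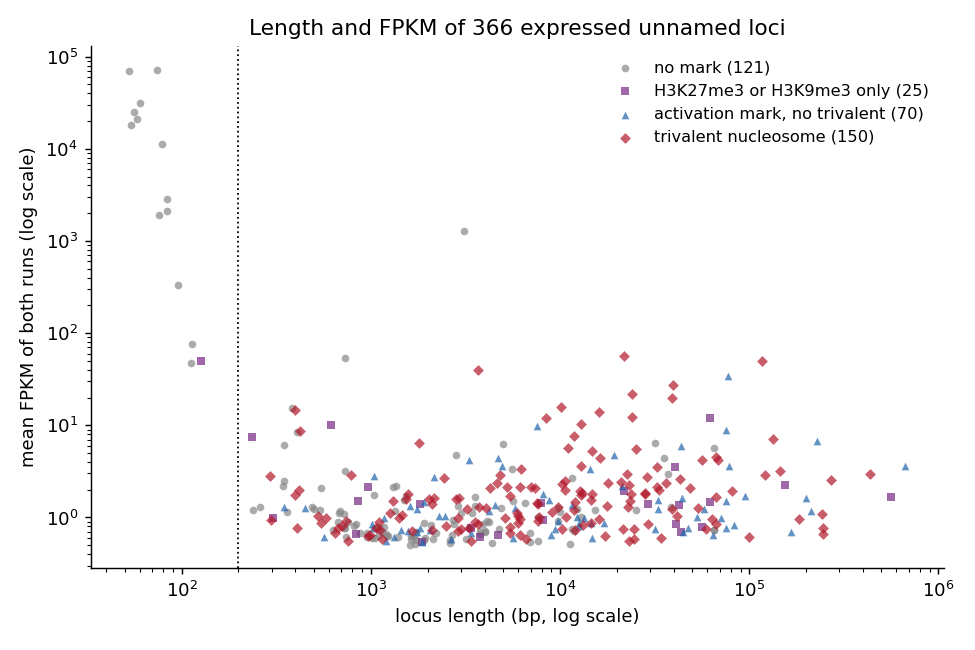
Length in bp and mean FPKM of both runs for the 366 expressed unnamed loci, both on log scales, with each point 1 locus, the marks within 2 kb as shape and colour and a dotted line at 200 bp. The 14 spans under 200 bp rise to 72177 FPKM with no activation mark, while the trivalent loci lie at 56.4 FPKM or below.

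The highest FPKM came from very short spans. Of the 12 members over 100 FPKM, 11 were under 200 bp, and together the members held 28.2% of the summed FPKM of the whole table against 0.244% for those of at least 200 bp. XLOC_010380, at chr16:33961266-33961339 (hg19), had 73441 FPKM in run 1 and 70912 FPKM in run 2 over 74 bp. XLOC_014492, 53 bp long at chr19:41676074-41676126 near CYP2S1, had 78185 and 61638 FPKM. XLOC_022212 (chr5:99385095-99385154) had 19359 and 43909 FPKM. FPKM divides by length, and counts of reads per locus were not analysed here, so their FPKM cannot be set beside that of long loci as an amount of RNA.

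The short spans also differed more between runs. XLOC_019844, 56 bp at chr3:195281897-195281952 near PPP1R2, had 8952 FPKM in run 1 and 41494 FPKM in run 2. XLOC_018208 (chr22:25085486-25085569) went the other way, with 4997 and 757 FPKM, a 6.60-fold difference. The remaining 5 of the 10 members with the highest FPKM were XLOC_026274, XLOC_005537, XLOC_005626, XLOC_002662 and XLOC_010666, each of 54 to 84 bp, with 1917 to 20979 FPKM. None of these 10 loci had any of the 5 marks within 2 kb. Over the 14 short members the FPKM ranged from 47.8 to 72177, the median difference between runs was 2.02-fold, and 1 had a mark, H3K27me3. In the whole table, 345 of 346 named autosomal loci under 200 bp were listed at 0 in both runs, whereas 16 of 64 unnamed ones reached 0.5 FPKM in both.

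Among members of at least 200 bp, XLOC_028177 (chr9:67331034-67334132, 3099 bp) stood apart with 1574 and 989 FPKM and no mark. It lay 40782 bp from AQP7P1. This and the following loci of at least 200 bp were picked after their values had been seen. XLOC_001865 (chr1:142691952-142713710) had 54.2 and 58.6 FPKM and a trivalent nucleosome. XLOC_003104, a span of 117 kb at chr10:77187732-77304503, had 51.4 and 48.7 FPKM, 8 trivalent nucleosomes and 16 H3K27ac peaks. XLOC_008194 (chr14:50326438-50330130) had 39.1 and 40.4 FPKM and 4 trivalent nucleosomes, close to the 38.6 FPKM of its neighbour KLHDC2. XLOC_022896 (chr6:147981823-148058793) differed from these: at 33.2 and 34.7 FPKM it had 4 H3K4me3 peaks but no H3K27ac peak. XLOC_021060 (chr5:27472373-27496504) had 20.7 and 22.8 FPKM with 8 trivalent nucleosomes, while CDH9, a cadherin gene 433683 bp away and the nearest named locus, was listed at 0.

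Run 1 and run 2 were over 2-fold apart at 32 of the 366 members, 8.74% with a 95% exact Clopper-Pearson interval of 6.06 to 12.1%. Over all autosomal loci at the limit in both runs the share was 0.699%. This interval and those given later cover counting error only, since loci from 1 library are not replicates. The median difference was 1.20-fold at members and 1.05-fold over all loci. The members' share was also the higher one within bands of FPKM, which were not matched for length. Among loci of at least 200 bp, 7.69% of members and 0.790% of named loci at 0.5 to 1 FPKM were over 2-fold apart, and 8.65% and 1.4% at 1 to 2 FPKM. At 2 to 5 FPKM the shares were 5.26% and 0.341%. At 5 FPKM or more it was 1 of 35 members (2.86%, 0.0723 to 14.9%) and 0.157% of named loci (0.0839 to 0.269%), with intervals that overlap. A pseudocount of 1 FPKM lowered the members' share to 2.46%. Members over 2-fold apart included XLOC_004600, with 1.81 and 5.52 FPKM, and XLOC_014826 (chr2:88012874-88013604, 731 bp), with 76.7 and 31.0 FPKM.

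Each activation mark lay near 50% to 53.0% of the members. H3K4me3 was within 2 kb of 183 members (50%, 95% interval 44.8 to 55.2%), H3K9ac of 194 (53.0%, 47.7 to 58.2%) and H3K27ac of 191 (52.2%, 46.9 to 57.4%). Over all autosomal loci, named and unnamed, expressed or not, these shares were 62.4%, 62.3% and 57.5%, each above the upper limit of the members' interval, for H3K27ac by a small margin. A trivalent nucleosome was within 2 kb of 150 members (41.0%, 35.9 to 46.2%) against 52.6% over all autosomal loci. No mark of any kind was found at 121 members (33.1%, 28.3 to 38.1%) against 22.9%. The autosomal loci were longer, with a median of 26128 bp, and within bands of length the order changed. At 200 bp to 2 kb, H3K4me3 was near 34.5% of members and 20.3% of autosomal loci. Trivalent nucleosomes were near 27.3% and 14.7%. At 2 to 20 kb the shares were 54.7% and 53.7% for H3K4me3 and 47.3% and 43.0% for trivalent nucleosomes. At 20 kb or more they were 68.5% and 80.2%, and 53.3% and 69.5%.

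Without regard to length, repressive marks were rarer at members than over all autosomal loci. H3K27me3 was within 2 kb of 28 members (7.65%, 5.14 to 10.9%) against 20.9% over all autosomal loci. H3K9me3 was within 2 kb of 52 members (14.2%, 10.8 to 18.2%) against 23.8%. At 200 bp to 2 kb, 2 to 20 kb and 20 kb or more, H3K27me3 was near 1.82%, 1.33% and 25% of members. Over autosomal loci of these lengths it was near 5.83%, 11.5% and 30.4%. H3K9me3 was near 6.36%, 4% and 42.4% of members and 4.65%, 5.77% and 38.8% of autosomal loci. Of these bands, H3K9me3 was rarer at members only at 2 to 20 kb. Many autosomal loci in the table are silent and most are named, so these backgrounds mix kinds of loci, and closer groups are set beside the members next.

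For the activation marks, the members lay between unnamed loci under the limit and expressed named ones. The 3861 distant unnamed loci under 0.5 FPKM in both runs are called silent here for short, although their mean FPKM reached 0.473. Of these, 13.1% had H3K4me3, 6.81% a trivalent nucleosome and 64.6% no mark. Of the 269 distant unnamed loci that reached the limit in 1 run, 29.4% had H3K4me3 and 22.3% a trivalent nucleosome. Expressed unnamed loci within 2 kb of a named locus had H3K4me3 in 86.1% and a trivalent nucleosome in 84.4%, in windows that can reach into the neighbour. Expressed named loci had H3K4me3 in 97.2%, a trivalent nucleosome in 92.3% and no mark in 1.11%. None of the intervals of these 4 groups for H3K4me3 overlapped that of the members. The repressive marks did not follow this order. H3K27me3 was near 10.9% of silent distant, 11.0% of nearer unnamed and 13.1% of named expressed loci, all above the 7.65% of members, although the intervals of both unnamed groups overlap that of the members. H3K9me3 was near 10.3% of silent distant loci, below the 14.2% of members with overlapping intervals, and near 17.8% and 25.3% of nearer unnamed and named expressed loci.

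**Figure D2:**
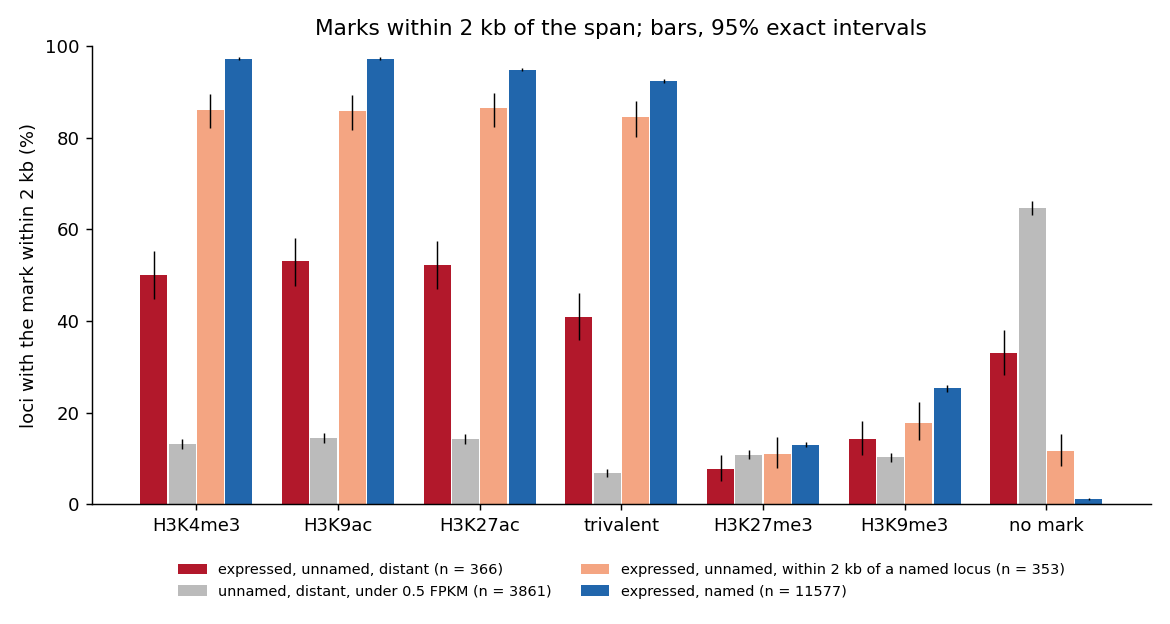
Percentage of loci with each mark within 2 kb of the span for 4 groups, with 95% exact intervals as error bars. The 366 expressed distant loci sit at 41.0% to 53.0% for the activation marks and trivalent nucleosomes, above the silent distant loci and below both groups of expressed loci near or with gene names.

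Since members are shorter and lower than named genes, the 242 members of at least 2 kb were set beside named loci in the same bands of length and FPKM. Members under 2 kb were left out. The top bands have no upper limit, so length and FPKM can still differ within them. At 2 to 20 kb and 0.5 to 1 FPKM, 24 of 67 members had H3K4me3 (35.8%, 24.5 to 48.5%) and 141 of 182 named loci (77.5%, 70.7 to 83.3%). In the same length band at 2 to 5 FPKM, the shares were 78.3% (56.3 to 92.5%) of 23 members and 92.4% (89.3 to 94.8%) of 393 named loci, with intervals that overlap. There was no overlap at 1 to 2 FPKM, with 63.3% (48.3 to 76.6%) and 85.9% (81.1 to 90.0%). Nor was there at 5 FPKM or more, with 81.8% (48.2 to 97.7%) and 98.7% (98.0 to 99.1%). At 20 kb or more, from the lowest FPKM band up, H3K4me3 was near 73.1%, 51.9%, 79.2% and 73.3% of members. Named loci had 85.9%, 93.1%, 96.9% and 99.8%, with overlapping intervals at 0.5 to 1 FPKM only. At 2 to 20 kb, trivalent nucleosomes gave 34.3% and 51.6% at 0.5 to 1 FPKM, 53.1% and 68.0% at 1 to 2 FPKM, 60.9% and 79.4% at 2 to 5 FPKM, and 72.7% and 96.2% at 5 FPKM or more. Up to 5 FPKM the intervals overlapped in this length band, and at 5 FPKM or more they did not (39.0 to 94.0% and 95.3 to 97.0%). At 20 kb or more the trivalent share of members was also the lower one in each of the 4 FPKM bands, with overlapping intervals at 0.5 to 1 FPKM (29.9 to 70.1% and 64.1 to 72.9%) and at 2 to 5 FPKM (48.9 to 87.4% and 87.0 to 90.4%) but not in the others. From the lowest FPKM band up, H3K9me3 was near 30.8%, 44.4%, 50% and 46.7% of members of that length. Among named loci the shares were 35.2%, 37.4%, 34.8% and 31.2%, with overlapping intervals in each band. H3K27me3 was near 38.5%, 22.2%, 20.8% and 13.3% of members and 36.1%, 25.6%, 19.7% and 13.3% of named loci, also with overlap.

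The window grows with the span, so longer members had more chance to hold a peak. H3K4me3 was found at 0 of 14 members under 200 bp, which allows a share of up to 23.2%, at 34.5% of 110 members of 200 bp to 2 kb, at 54.7% of 150 of 2 to 20 kb and at 68.5% of 92 of 20 kb or more. Trivalent nucleosomes followed the same order with 27.3%, 47.3% and 53.3% above 200 bp. In the silent distant loci H3K4me3 also rose with length, with 10.4%, 17% and 18.8% in the same 3 bands, and the trivalent shares were 5.76%, 9.29% and 6.50%. Their repressive marks were frequent at the longest loci, with H3K27me3 at 49.8% and H3K9me3 at 51.8% of those of 20 kb or more, whereas members of that length had 25% and 42.4%.

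Counting nucleosomes instead of loci sets the marked positions against all positions in the windows. The activation marks gathered at 1 end of the span, as described below, so their share of positions can still depend on span length. The windows of the members covered 9350257 bp with 46886 nucleosome positions, of which 1649 (3.52%) carried a mark, 2.41 times the share over all autosomal positions. Trivalent nucleosomes made up 1.17% of these positions (1.08 to 1.27%), 3.80 times the autosomal share. This interval takes positions as independent and is too narrow. The trivalent nucleosomes came from 150 members, with a median of 4 at each. H3K27ac was at 2.47% of positions, H3K4me3 at 2.02% and H3K9ac at 1.81%, which was 3.28 to 3.58 times the autosomal share. H3K27me3 was at 0.0960% of positions, 0.517 times the autosomal share, and H3K9me3 at 0.181%, 0.732 times. Around the silent distant loci, with 207126 positions, the folds were 1.01 for H3K4me3, 1.44 for H3K27ac, 1.15 for H3K27me3 and 1.06 for H3K9me3.

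Among the marked nucleosomes around members, the trivalent combination with no other mark was the most frequent, with 547 of 1649 (33.2%) against 21.1% of the marked autosomal nucleosomes. H3K27ac alone made up 22.8% against 19.9%, and H3K4me3 alone 13.8% against 11.5%. A single member, XLOC_005852, held 43 of the 376 nucleosomes with H3K27ac alone. The pair H3K9ac and H3K27ac without H3K4me3 made up 9.64% against 4.2%. Around the silent distant loci this pair made up 8.68%, H3K27ac alone 27.9% and the trivalent combination 14.2% of 3847 marked nucleosomes. H3K27me3 alone made up 2.67% against 12.0%, and H3K9me3 alone 4.73% against 16.4%. No nucleosome there carried H3K4me3 with H3K27me3, a combination at 0.190% of all marked autosomal nucleosomes, which is too rare for its absence among 1649 to be read.

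Where the marks lay along a locus was read with the strand. The table gives no strand, but on each chromosome the locus numbers run through the coordinates in 3 passes. Of 21001 named autosomal loci in the first and second pass, 12309 had a strand for their symbol in RefSeq (GRCh38.p14), fewer than the 80% needed for a check, so this stands as a description: 95.7% of those in the first pass were on the plus strand and 94.9% of those in the second on the minus strand. The first pass was therefore read as plus and the second as minus, and the third, which holds 4480 unnamed and 48 named loci, as without strand. The members numbered 116, 112 and 138 in these passes. Members without strand were shorter and lower, with a median of 1107 bp and 0.864 FPKM against 12302 bp and 1.49 FPKM on the plus strand and 11890 bp and 1.29 FPKM on the minus strand. Trivalent nucleosomes were at 55.2% of plus, 49.1% of minus and 22.5% of members without strand.

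The activation marks gathered at 1 end. Among 172 distinct members over 4 kb with a strand, H3K4me3 was within 2 kb of the lower end alone at 48 of 87 plus-strand loci and of the higher end alone at 1. On the minus strand the order turned, with 3 of 85 at the lower end alone and 45 at the higher end alone. Over both strands, the inferred start had H3K4me3 at 97 loci (56.4%, 48.6 to 63.9%) and the inferred stop at 8 (4.65%, 2.03 to 8.96%). Trivalent nucleosomes were at the start of 78 (45.3%) and the stop of 7 (4.07%). H3K27ac was at the start of 97, the stop of 15 and the interior of 57 (33.1%), a wider spread than that of H3K4me3, which was in the interior of 37 (21.5%). The repressive marks had no such end: H3K9me3 was at the start of 6, the stop of 5 and the interior of 28, and H3K27me3 at 3, 3 and 16.

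In bins of 250 bp around the inferred start of 223 distinct loci with a strand, H3K4me3 reached 36.3% and H3K9ac 32.3% of loci at 500 to 750 bp downstream. H3K27ac reached 34.5% and trivalent nucleosomes 26.9% at 250 to 500 bp downstream. Within 5 kb of the inferred stop, H3K4me3 reached at most 5.38%, in a bin 1000 to 1250 bp before it.

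**Figure D3:**
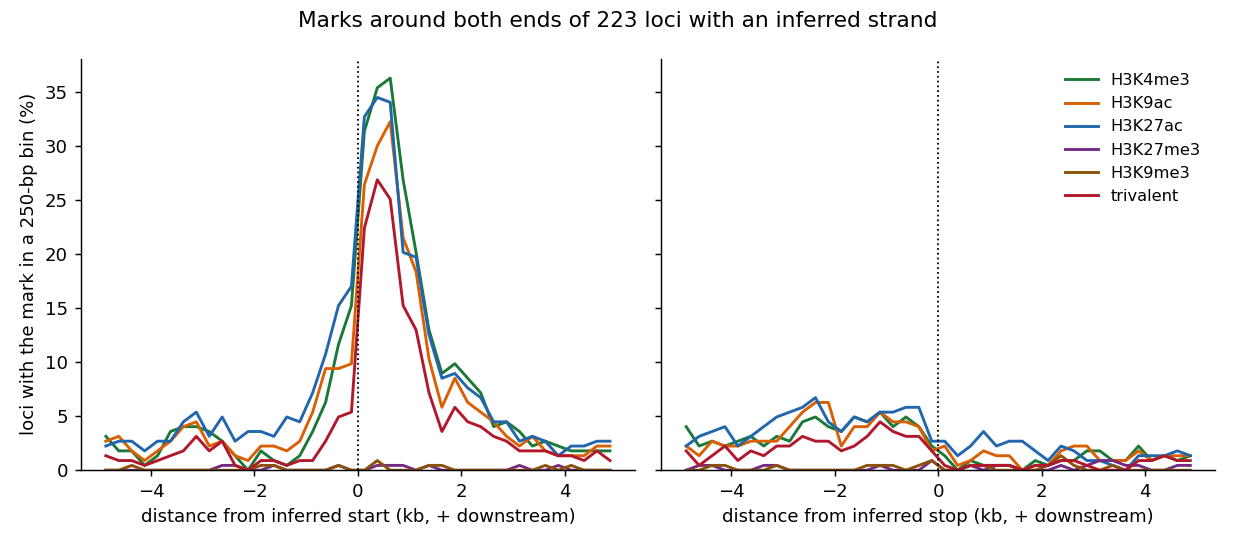
Percentage of 223 expressed distant loci with a strand that have each mark in bins of 250 bp, within 5 kb of the inferred start (left) and stop (right), with distance in kb and positive values downstream. Each activation mark peaks just downstream of the start, up to 36.3% for H3K4me3, and stays low at the stop, whereas H3K27me3 and H3K9me3 lie along the baseline.

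Higher FPKM went with more trivalent loci across all distant unnamed loci of at least 200 bp. The share with a trivalent nucleosome was 1.18% of 2027 loci listed at 0, 18.7% of 1010 at 0.1 to 0.5 FPKM, 29.0% of 272 at 0.5 to 1, 40.5% of 111 at 1 to 2, 55.0% of 60 at 2 to 5 and 52.8% of 36 at 5 FPKM or more. The intervals of neighbouring bands above 0.5 FPKM overlapped. Median length rose over the same bands from 1366 to 12442 bp, and its part in the rise was not tested. H3K27me3 did not follow this order, with 14.1% at 0, 3.56% at 0.1 to 0.5 FPKM and 7.35% to 8.33% in the bands above.

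**Figure D4:**
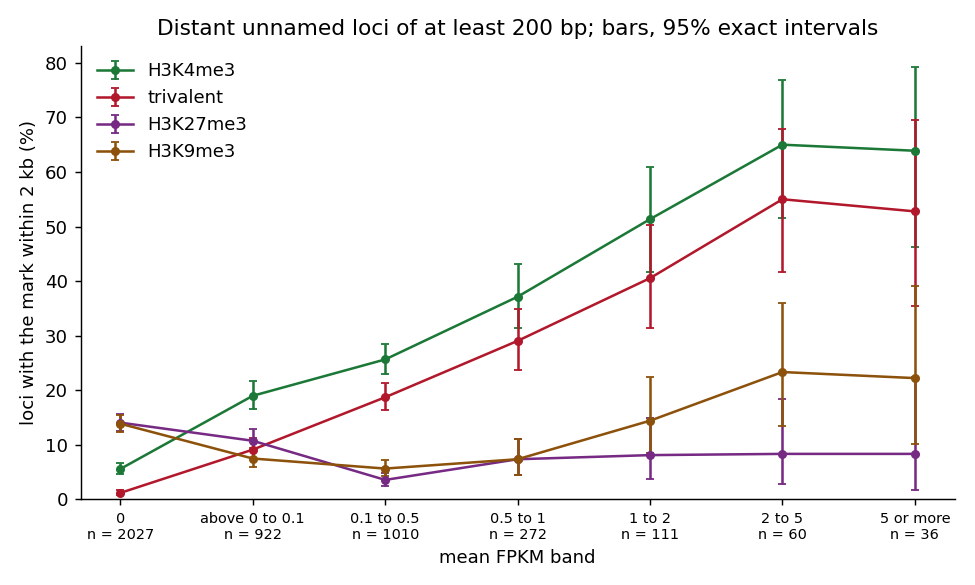
Percentage of distant unnamed loci of at least 200 bp with H3K4me3, a trivalent nucleosome, H3K27me3 or H3K9me3 within 2 kb, by band of mean FPKM, with 95% exact intervals as error bars and the number of loci under each band. The trivalent share goes from 1.18% at 0 FPKM to 55.0% at 2 to 5 FPKM, while H3K27me3 stays at 14.1% or below.

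Within the members themselves the median FPKM with and without an activation mark differed little, with the short spans included. Those with an activation mark (220 loci) had a median of 1.27 FPKM and those without (146) 1.10 FPKM, and the interquartile ranges of both groups overlapped. Run 1 alone gave 1.30 and 1.07 FPKM, and run 2 alone 1.26 and 0.983 FPKM. The 77 members with at least 4 trivalent nucleosomes had a median of 1.58 FPKM, the 73 with 1 to 3 had 1.29 FPKM, and the 70 with an activation mark but no trivalent nucleosome had 1.03 FPKM. The 121 with no mark had 0.999 FPKM, and the 25 with H3K27me3 or H3K9me3 only had 1.42 FPKM. All 14 members under 200 bp are among the 146 without an activation mark, and 13 of them are among the 121. Their FPKM of 47.8 or more lifts the medians of these groups, and medians without them were not computed. Since a minimum FPKM chose the members, these medians cannot fall under it and describe the chosen loci only. Among members of 2 to 20 kb, a band without the short spans, the trivalent share was 34.3% at 0.5 to 1 FPKM (23.2 to 46.9%) and 53.1% at 1 to 2 FPKM. It was 60.9% at 2 to 5 FPKM and 72.7% at 5 FPKM or more (39.0 to 94.0%). The intervals of the lowest and highest band overlap.

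Most members with a trivalent nucleosome had several. Of the 150 members that had any, 104 had at least 3 (69.3%, 61.3 to 76.6%) and 77 at least 4 (51.3%, 43.0 to 59.6%), and the highest number was 12. Over all autosomal loci with any, these shares were 76.8% and 61.6%, and over the silent distant loci 36.9% and 23.2%. XLOC_015355, a span of 6137 bp at chr2:8763718-8769854, had 2.18 and 2.12 FPKM and 12 trivalent nucleosomes, all between 1973 and 3978 bp downstream of its inferred start. Its nearest named locus was ID2, an inhibitor of basic helix-loop-helix transcription factors, 49501 bp away and at 209 FPKM. XLOC_015899, 14653 bp at chr2:191663199-191677851, had 1.33 and 1.75 FPKM and also 12 trivalent nucleosomes, which began 35 bp from the inferred start and ended at 3318 bp.

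XLOC_027923 (chr9:132250503-132275873) had 5.33 and 5.77 FPKM and 11 trivalent nucleosomes spread from 689 to 8954 bp, and 2 H3K9me3 nucleosomes past its stop. XLOC_009833 and XLOC_009832 share the span chr16:29267396-29291978 and the same 11 trivalent nucleosomes, at 3931 to 6336 bp from the start. The former had 0.753 and 0.737 FPKM and the latter 0.647 and 0.514 FPKM. In the map of marked nucleosomes, the strings of XLOC_015355 and XLOC_009833 began well inside the span and that of XLOC_015899 at its start.

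**Figure D5:**
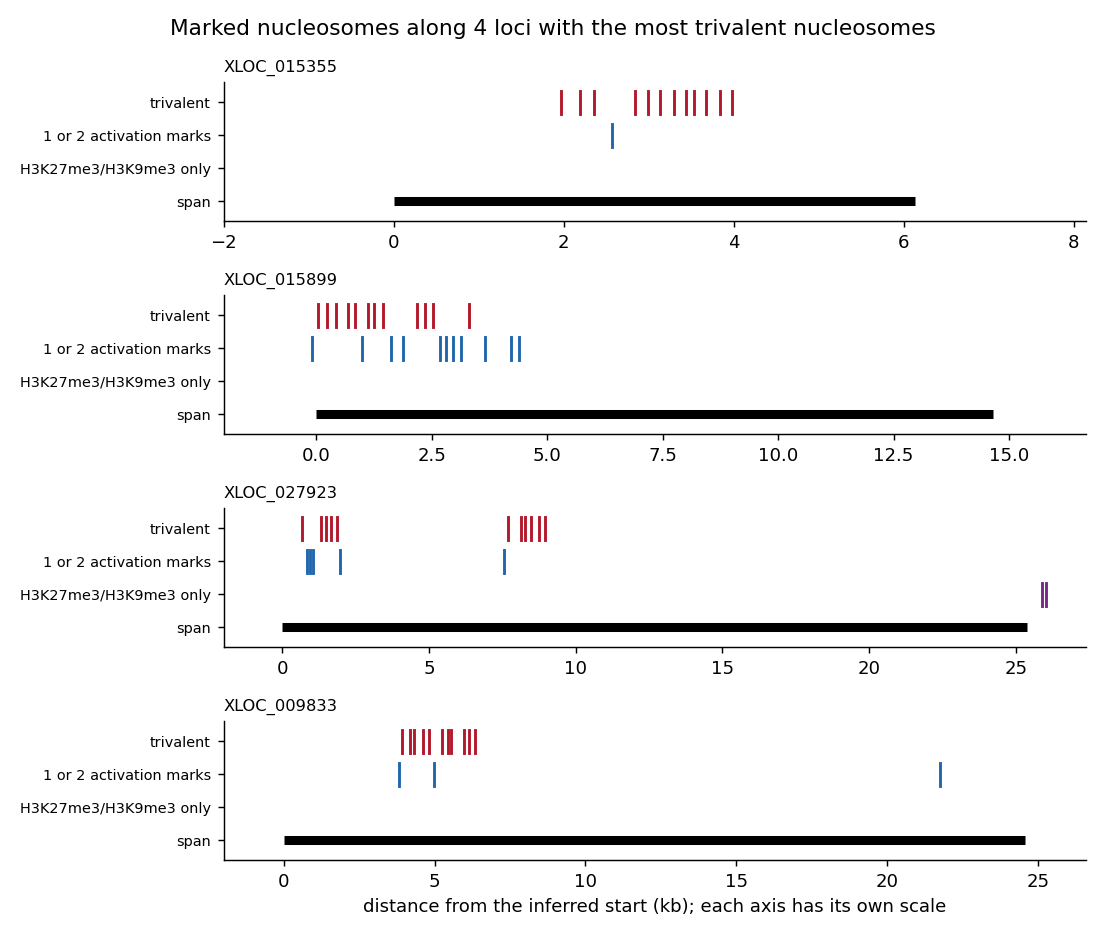
Marked nucleosomes along XLOC_015355, XLOC_015899, XLOC_027923 and XLOC_009833, as ticks at their distance in kb from the inferred start, with the span as a black bar and rows for trivalent nucleosomes, those with 1 or 2 activation marks, and those with only H3K27me3 or H3K9me3. The 12, 12, 11 and 11 trivalent nucleosomes all lie within 8954 bp of the start, in the middle of the span of XLOC_015355 and nearer to the start of the longer spans.

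At least 10 H3K27ac peaks were found at 45 members (12.3%, 9.11 to 16.1%), a list drawn after the values had been seen. The share was 17.5% over all autosomal loci, 30.4% over named expressed loci and 1.79% over silent distant loci. XLOC_005852, a span of 272 kb at chr12:46774999-47046537 with 2.62 and 2.42 FPKM, had 57, the highest number. Its 5 trivalent nucleosomes lay 1815 to 2868 bp from the start, and 43 nucleosomes with H3K27ac alone were spread from 4326 to 210025 bp. Its neighbour SLC38A2, an amino acid transporter gene, was 8336 bp away at 233 FPKM. XLOC_015495 (chr2:47426678-47572204) near EPCAM had 21 H3K27ac peaks and 6 trivalent nucleosomes, with 2.15 FPKM in run 1 and 4.21 FPKM in run 2.

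Of the 191 members with H3K27ac, 28 had no H3K4me3 within 2 kb, and 19 of these had at least 3 H3K27ac peaks. The 28 were 14.7% (9.97 to 20.5%) of the members with H3K27ac, against 5.06% over all autosomal loci with H3K27ac and 45.4% over the silent distant ones. Their median was 0.932 FPKM and 12141 bp. XLOC_011996 (chr17:70319174-70396967) had 3.58 and 3.72 FPKM, 18 H3K27ac and 8 H3K9ac peaks and no H3K4me3. XLOC_014745 (chr2:67283285-67495760) had 1.20 and 1.16 FPKM, 11 H3K27ac peaks, the highest number of H3K27me3 peaks of any member (6), 2 H3K9me3 peaks and no H3K4me3. In the other direction, 20 members had H3K4me3 but no H3K27ac, 10.9% of those with H3K4me3 against 12.5% over all autosomal loci with H3K4me3. All 3 activation marks were near 159 members, of which 9 had no single nucleosome with the 3 together.

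H3K27me3 and H3K9me3 were mostly found at long members. Those with H3K27me3 had a median length of 66511 bp and those with H3K9me3 of 42677 bp. After XLOC_014745, the highest H3K27me3 counts were at XLOC_002939 (chr10:19464224-20023372), with 5 H3K27me3 and 3 H3K9me3 peaks over 559 kb, no activation mark and 1.52 and 1.79 FPKM, and at XLOC_009769. XLOC_009769 was short by comparison, 1827 bp at chr16:18479259-18481085, with 4 H3K27me3 peaks and 1.38 and 1.43 FPKM. XLOC_004600, the longest member at 666 kb (chr11:89984390-90650447), had 10 H3K9me3, 2 H3K27me3 and 2 H3K4me3 peaks and no trivalent nucleosome.

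Some members combined repressive and activation marks. XLOC_027604 (chr9:31848579-32090334) had 5 H3K9me3 peaks and 7 trivalent nucleosomes at 0.951 and 1.21 FPKM. XLOC_013961 (chr19:23399931-23433332), 54176 bp from the zinc finger gene ZNF91, had 4 H3K9me3 peaks and 2 trivalent nucleosomes at 1.83 and 2.18 FPKM. XLOC_018574 (chr3:82035300-82469553), 434 kb long, had 4 trivalent nucleosomes and 1 peak each of H3K27me3 and H3K9me3 at 2.78 and 3.12 FPKM. XLOC_015797 (chr2:156865704-157111513), the fifth longest, had 3 trivalent nucleosomes and 2 H3K27me3 peaks at 0.636 and 0.894 FPKM. All 3 activation marks together with H3K9me3 were near 23 members, 7 of them with H3K27me3 as well, at a median of 48792 bp. That was 6.28% of members (4.02 to 9.28%) against 14.0% of all autosomal loci. H3K9me3 was the only mark at 16 members.

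No mark was found near 53 of the 242 members of at least 2 kb. At 2 to 20 kb this was 30% of members (22.8 to 38.0%) and 31.0% of all autosomal loci. At 20 kb or more it was 8.70% (3.83 to 16.4%) and 4.91%. The silent distant loci had no mark in 58.3% and 18.5% in these bands. XLOC_010893 (chr17:14337637-14402702, 65066 bp) had 5.79 and 5.44 FPKM, XLOC_020468 (chr4:49206135-49238007) 6.77 and 5.97 FPKM, and XLOC_017380 (chr21:16740940-16776214) 4.63 and 4.28 FPKM. These were picked after their values had been seen. Other members lay beside XLOC_010893 and XLOC_017380.

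Some members lay close to other members, and the same count was not made for the other distant unnamed loci. Of the 366, 29 shared their coordinates with another member, leaving 350 distinct spans, and 101 lay within 10 kb of another member. Merging within 2 kb gave 319 regions, of which 53.3% had H3K4me3 and 43.9% a trivalent nucleosome, both inside the intervals of the unmerged members. Merging within 10 kb gave 309 regions, 44 of them with more than 1 member and at most 6.

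The region with 6 members was chr17:14329186-14404033, which held XLOC_010893 and 5 members without strand, of 0.610 to 1.12 FPKM, with 1 H3K9me3 peak at XLOC_012163 and no other mark. Upstream of it, chr17:14276708-14293653 held 4 members, led by XLOC_010892 with 2.79 and 2.21 FPKM, 15 H3K4me3 peaks and 7 trivalent nucleosomes, 23985 bp from HS3ST3B1, a gene of heparan sulfate synthesis. The 3 members that follow XLOC_010892 there had no H3K4me3 and 1 H3K9ac peak each in their windows. A similar order was seen at chr21:16740940-16816848, where XLOC_017382 had 4 trivalent nucleosomes and 17 H3K27ac peaks at 1.23 and 1.29 FPKM, and the other 3 members had none of the 5 marks. Whether neighbouring members are pieces of 1 transcript cannot be told from the table.

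Over all autosomes 8.14% of the 4496 distant unnamed loci were members. Chromosome 17 held 32 members, 18% of its 178 distant unnamed loci (12.6 to 24.4%), in 22 regions after merging within 10 kb, with 10 of the members in the 2 regions near HS3ST3B1. On chromosome 16 the number was 24 of 177 (13.6%). Chromosome 8 was lower with 9 of 243 (3.70%, 1.71 to 6.91%). By gap to named genes, the trivalent shares had overlapping intervals: a trivalent nucleosome was near 52.3% of 44 members at a gap of 2 to 4 kb (36.7 to 67.5%), 40.0% of 65 at 4 to 10 kb, 42.0% of 143 at 10 to 50 kb and 36.0% of 114 beyond 50 kb (27.2 to 45.5%). H3K9me3 was near 23.7% of members beyond 50 kb (16.2 to 32.6%) and 9.79% at 10 to 50 kb (5.46 to 15.9%), where the median lengths were 12301 and 3405 bp.

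Genes that RefSeq (GRCh38.p14) now lists between the 2 named loci flanking a member were looked up by symbol and order, with no coordinates carried over. This could be done for 214 of the 366 members, fewer than the 80% needed for a check of the whole set. Of the 214, 175 (81.8%) had a long noncoding RNA gene in that interval, and so had 1851 of 2266 silent distant loci (81.7%), so the share was not particular to expressed loci. Between the flanks of XLOC_008194, ARF6 and SDCCAG1 (listed with the same span as KLHDC2), RefSeq lists RN7SL3, LOC105378179 and RN7SL2, of which RN7SL2 and RN7SL3 encode the RNA of the signal recognition particle. A gene or pseudogene of this RN7SL series was listed between the flanks of 19 of the 214 members (8.88%), 2 of them among the 8 matched members under 200 bp. The share among the silent distant loci was not counted, so this number cannot be read as a trait of the members. A gene in the interval is not shown to be the member, since strands and exons were not compared.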

How the data were processed

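HepG2 was measured in 7 samples, 1 for each assay. The authors called nucleosome positions with DANPOS from native MNase-Seq and histone peaks at these positions with NUCLIZE, and deposited both as coordinates without counts or heights. The deposited RNA-Seq table lists FPKM per locus for 2 runs and is laid out like Cuffdiff output. Its p-value and q-value columns hold the authors' own comparison of these columns, as deposited, and were not used. The submitters' processing notes name hg19, BWA, TopHat2 2.1.0, Bowtie, HOMER 4.7 and edgeR with no role, and the gene annotation is not given in the sources used here. Read counts per locus and per peak are not in the tables used, so no precision from depth can be given.

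Locus starts were read as 0-based and are printed with the first base as 1. Peaks were tied to nucleosome positions by the identifier they carry, and nucleosomes within windows were counted by their midpoint. Shares have exact Clopper-Pearson 95% intervals. Members and lists were chosen with earlier results of these data known. The loci named are the 10 members with the highest mean FPKM, the 5 longest, the 5 with the most trivalent nucleosomes, the 3 with the most H3K27me3 and the 3 with the most H3K9me3 peaks, and loci just inside and outside the limits. Loci outside this rule are the further members of at least 200 bp with high FPKM, those with many H3K27ac peaks, those without H3K4me3 or any mark, and those in clusters, all chosen after their values were seen. No genome of the files' build was used, so no sequence, GC content or repeat overlap is reported. The counting was tested on simulated data, where all 300 simulated loci were recovered. Alternatives were other FPKM and distance limits, windows of 0, 1 and 5 kb, merged members, peak midpoints, each run alone and a pseudocount, and, added after seeing the data, spans of at least 200 bp and loci with a strand. Computations used numpy 2.4.6, scipy 1.17.1, pandas 2.3.3 and matplotlib 3.10.9 under Python 3.11.15. The named neighbour of 1 member is not reported here.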

Additional observations from a re-analysis of the deposited data

How the results depend on the processing

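The number of members followed the FPKM limit: 677 at 0.25 FPKM and 183 at 1 FPKM, against 366. With a mean of both runs of at least 0.5 it was 510, and with gaps over 1 and 10 kb 393 and 257. At the limit of 0.25 FPKM, H3K4me3 was near 41.4%, H3K9ac 44.6%, H3K27ac 45.5%, H3K9me3 10.04% and a trivalent nucleosome 32.9% of loci, and 42.5% had no mark. At 1 FPKM, these were 59.0% for H3K4me3, 60.1% for H3K9ac, 59.0% for H3K27ac and 49.2% for trivalent nucleosomes, and 27.3% had no mark. With the span alone, H3K9ac was at 46.4% and no mark at 39.6%. With a window of 5 kb, H3K27me3 was near 11.5% and no mark was near 27%. Among the loci with a strand, an alternative chosen after seeing the data, H3K4me3 was near 62.7%, H3K9ac 66.7%, H3K27ac 65.4% and a trivalent nucleosome 52.2%, and 18.9% had no mark. The share with runs over 2-fold apart was 2.46% on the log2(FPKM + 1) scale against 8.74%. The other 55 values stayed within the main interval, within 1.5 times the main count or, for FPKM with and without activation marks, kept their direction; these include all those from a window of 1 kb, gaps over 10 kb, merged members, peak midpoints and spans of at least 200 bp. The cause of these shifts was not tested.

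No paired analysis was possible because each assay has 1 sample and no groups are compared. One library per assay and lists without read counts or peak heights mean that no spread between cultures can be given, that an absent peak does not show an absent mark, and that a stricter calling threshold could not be tried. The strand is inferred, and a locus span contains introns, and marks in the interior of long loci cannot be told apart from marks of other elements there.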
